A study of Mus musculus with 24 samples.

Results

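Cisplatin given alone was compared with its solvent control in ID8 Trp53-/- cells, a mouse ovarian cancer line that the labels name ID8 P53 KO. The comparison holds 12 of the 24 libraries of the study: 6 from cells kept with DMSO and 6 from cells kept with cisplatin at 750 nM, all chosen by their treatment label. RNA was taken after 6 days, and the 12 libraries share the same line, the same P53 knockout and the same medium (high-glucose DMEM with pyruvate, low serum and insulin-transferrin-selenium). The other 12 libraries, from cells given AU15330 at 2.5 uM (a PROTAC against SMARCA4) with or without cisplatin, entered the same statistical fit and are used below only where they are named. The labels do not say whether the 6 replicates of a group were separate cultures, so every p-value measures the spread between these libraries, which may be technical, and all of them come from a single cell line.

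Cisplatin is a platinum compound that binds purines in DNA and joins neighbouring bases, and less often opposite strands, into crosslinks. Adducts within a strand are mainly removed by nucleotide excision repair, whereas crosslinks between strands stall replication forks and are processed by the Fanconi anaemia proteins together with homologous recombination. Cells that survive for days with platinum often become enlarged and senescent, and in ovarian cancer the drug is part of standard treatment. ID8 is derived from mouse ovarian surface epithelium, a layer of mesothelial character, and without p53 the usual p53-dependent transcription after DNA damage is not available to it. The questions followed here are which metabolic, matrix, transcription factor and DNA repair genes differed between cisplatin and DMSO, beyond the secreted inflammatory factors for which such cells are usually examined.

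CPM values are counts scaled to a common library size after TMM normalisation, and a gene was called when its Benjamini-Hochberg adjusted p in edgeR's quasi-likelihood F test was under 0.05. Of 12941 genes tested, 6689 were called (51.7%), 3360 higher with cisplatin (26.0%) and 3329 lower (25.7%). The groups of 6 did not overlap, with cisplatin higher, for 1835 genes (14.2%), and with cisplatin lower for 1265 genes (9.78%). Increases were larger than decreases: 1441 called genes were over 2-fold higher and 290 over 2-fold lower, with median log2 fold changes of 0.83 among called increases and −0.43 among called decreases. With libraries scaled by their totals alone, 3977 genes were called higher and 2529 lower, and the median over all tested genes moved by 0.07. That median was 0.00 with TMM, so that the share of called genes in a list and its median are read below against these values. Library totals were 17592588 to 23096222 counts with DMSO and 21805569 to 25260009 with cisplatin, and each of the 12 libraries was most like a library of its own group. A higher share of cells in a given state and a higher level per cell cannot be told apart in such bulk RNA. Trp53 itself was read from 21.6 to 31.9 CPM (median 30.8) with DMSO and from 35.1 to 42.9 CPM (median 39.9) with cisplatin, a transcript level that by itself does not check the knockout. Of the line's epithelial and mesothelial markers, 6 of 8 were higher with cisplatin and 0 lower, and their summed level was 3309.6 to 4979 CPM with DMSO and 4301 to 5077 CPM with cisplatin. The haematopoietic markers summed to 12.2 to 28.6 CPM with DMSO and 12.1 to 18.1 CPM with cisplatin, most of it Cd68, with Ptprc at most at 5 counts. The endothelial markers summed to 3.45 to 5.41 CPM with DMSO and 11.1 to 15.2 CPM with cisplatin, with Pecam1 as the main gene, and their part in other results was not tested.

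**Figure D1:**
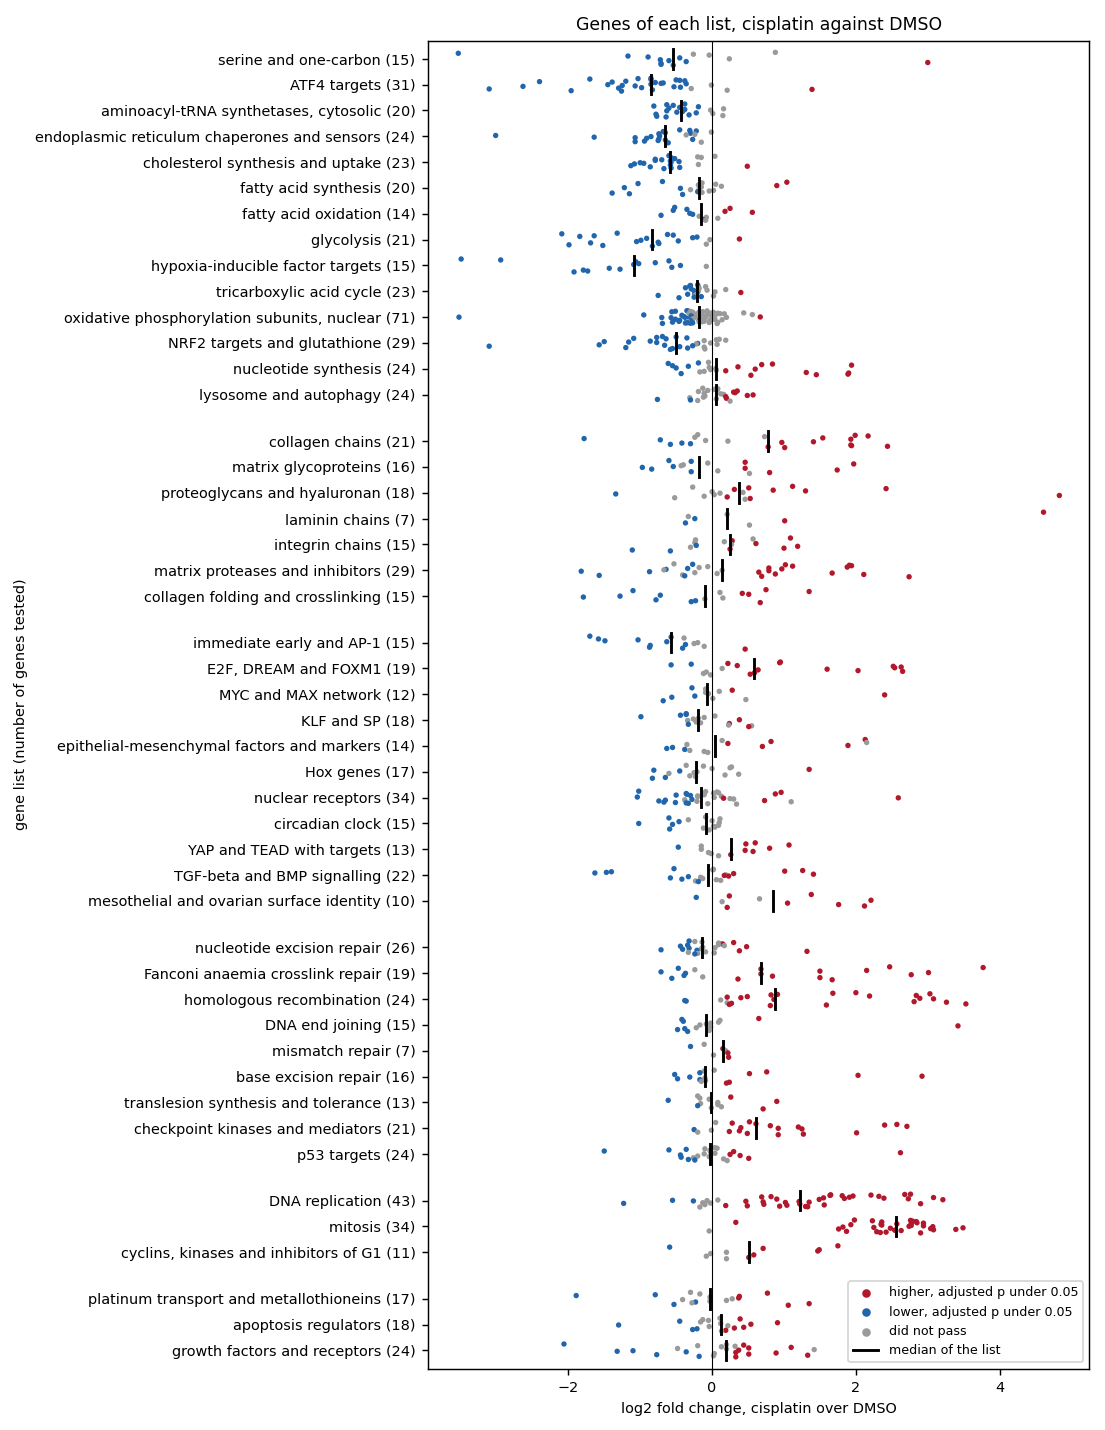
Log2 fold change of cisplatin over DMSO (horizontal axis) for every tested gene of 47 lists (rows, with the number of genes tested), red where higher and blue where lower at an adjusted p under 0.05, grey where the test was not passed, with a black bar at the list's median. The amino acid, glycolysis and redox lists lie left of 0 and the homologous recombination, replication and mitosis lists right of 0. The rightmost point, Lum, had no count with DMSO and its fitted value is no measure of its size.

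The amino acid stress programme was lower with cisplatin. ATF4 is a transcription factor that is translated when amino acids run short or unfolded protein accumulates, and it raises amino acid import and synthesis, tRNA charging and one-carbon enzymes. Of 31 tested genes on the list of its targets, 27 fell and 1 rose, with a median log2 fold change of −0.85. Of 15 genes of serine and one-carbon metabolism 10 fell and 1 rose (median −0.54), and of 20 cytosolic aminoacyl-tRNA synthetases 16 fell and 0 rose (median −0.43). The gene that rose on the ATF4 list, Slc7a3, a cationic amino acid transporter, was read at low levels, from 0.0965 to 1.67 CPM (median 0.883) with DMSO and from 0.864 to 4.65 CPM (median 1.97) with cisplatin.

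Some of the largest decreases were in genes whose promoter holds the ATF4 response element. The element was searched as TGATGNAA on both strands in RefSeq promoter windows of GRCm38.p6, which run from 250 bases before to 50 bases after a gene's start. It was found in 11 of the 27 list genes that have a window (40.7%), against 280 of 10341 tested genes with a window (2.71%) and 1304 of all 32851 windows (3.97%). The list was assembled from genes known for such sites, and a match is a description of the letters and not a bound site. The windows of the 3 list genes with the element and the largest changes are shown with the element in capitals.
Slc7a11 promoter, chr3:50443564-50443863, minus strand: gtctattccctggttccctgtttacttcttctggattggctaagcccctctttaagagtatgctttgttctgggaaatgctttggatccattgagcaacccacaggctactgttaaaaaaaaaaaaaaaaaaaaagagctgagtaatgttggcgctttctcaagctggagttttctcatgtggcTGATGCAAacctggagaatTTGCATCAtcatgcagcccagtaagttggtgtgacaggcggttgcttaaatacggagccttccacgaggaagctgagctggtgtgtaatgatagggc
Pycr1 promoter, chr11:120643699-120643998, minus strand: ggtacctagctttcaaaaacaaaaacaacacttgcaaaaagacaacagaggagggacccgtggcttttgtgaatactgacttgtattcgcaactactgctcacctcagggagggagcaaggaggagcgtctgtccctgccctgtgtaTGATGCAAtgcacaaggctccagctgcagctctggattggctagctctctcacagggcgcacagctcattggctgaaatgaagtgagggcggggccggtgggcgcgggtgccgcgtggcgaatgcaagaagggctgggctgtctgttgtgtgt
Trib3 promoter, chr2:152344011-152344310, minus strand: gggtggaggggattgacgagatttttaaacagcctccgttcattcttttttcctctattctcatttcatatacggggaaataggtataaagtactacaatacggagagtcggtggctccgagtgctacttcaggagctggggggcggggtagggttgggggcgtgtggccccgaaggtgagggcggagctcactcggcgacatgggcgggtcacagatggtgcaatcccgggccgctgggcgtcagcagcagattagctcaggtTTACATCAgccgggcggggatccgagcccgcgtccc
Counted with the start site as 0, the elements began at −66 and −47 in Slc7a11, at −103 in Pycr1 and at 14 in Trib3, the second Slc7a11 element and the Trib3 element being read on the opposite strand.

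Slc7a11, which encodes the cystine importer of the cystine-glutamate exchanger, was read from 26.8 to 259.6 CPM (median 181) with DMSO and from 14.4 to 24.5 CPM (median 17.7) with cisplatin (log2 fold change −3.10, SE 0.326, edgeR adjusted p = 1.47e-08). Every DMSO library was above every cisplatin library, and DMSO replicate 1 was the lowest of its group by a wide margin. Pycr1, which catalyses the last step of proline synthesis, was read from 12.1 to 43.7 CPM (median 32.7) with DMSO and from 4.28 to 6.96 CPM (median 4.88) with cisplatin (log2 fold change −2.63, SE 0.206, edgeR adjusted p = 6.52e-11), again without overlap. Trib3, a pseudokinase that feeds back on ATF4, was read from 39 to 206 CPM (median 131) with DMSO and from 29.1 to 37.8 CPM (median 32.6) with cisplatin and was 3.89-fold lower by the fitted fold. Asns, asparagine synthetase, was read from 70.2 to 258 CPM (median 176) with DMSO and from 73.7 to 109 CPM (median 77.8) with cisplatin (log2 fold change −1.03, SE 0.178, edgeR adjusted p = 2.93e-05). Its groups overlapped because DMSO replicate 1 lay below all cisplatin libraries. The same library set the overlap of Atf4 itself (−0.85), of Ddit3, which encodes the stress factor CHOP (−1.39), and of Chac1, a glutathione-degrading enzyme (−1.20), all values being log2 fold changes that passed the test. Without replicate 1 of every group the 4 genes had log2 fold changes of −1.06 for Atf4, −1.71 for Ddit3, −1.45 for Chac1 and −1.29 for Asns, all of them called.

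Within one-carbon metabolism the named mitochondrial enzymes fell and a cytosolic one rose. Aldh1l2, the mitochondrial formyltetrahydrofolate dehydrogenase, was read from 33.5 to 185 CPM (median 132) with DMSO and from 9.5 to 13.1 CPM (median 11.1) with cisplatin (log2 fold change −3.53, SE 0.25, edgeR adjusted p = 9.44e-12), the largest decrease of the list and free of overlap. Shmt1, the cytosolic serine hydroxymethyltransferase that supplies folate units to thymidylate, was read from 1.54 to 2.97 CPM (median 2.11) with DMSO and from 12.2 to 20 CPM (median 18.2) with cisplatin (log2 fold change 3.00, SE 0.14, edgeR adjusted p = 2.17e-15). Its lowest cisplatin library was above the highest DMSO library. The mitochondrial enzymes Mthfd1l, Mthfd2 and Shmt2 had log2 fold changes of −1.17, −0.89 and −0.71, all called, with Mthfd2 and Shmt2 overlapping between groups. In serine synthesis Psat1, the aminotransferase, fell (−0.72), whereas Phgdh, the first enzyme of the pathway, had a log2 fold change of 0.24 and did not pass the test with all libraries but did without replicate 5 (edgeR adjusted p = 0.0127). Among the synthetases, Sars (seryl-tRNA synthetase) and Eprs (glutamyl-prolyl-tRNA synthetase) had log2 fold changes of −0.78 and −0.81 and Gars (glycyl-tRNA synthetase) −0.60.

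**Figure D2:**
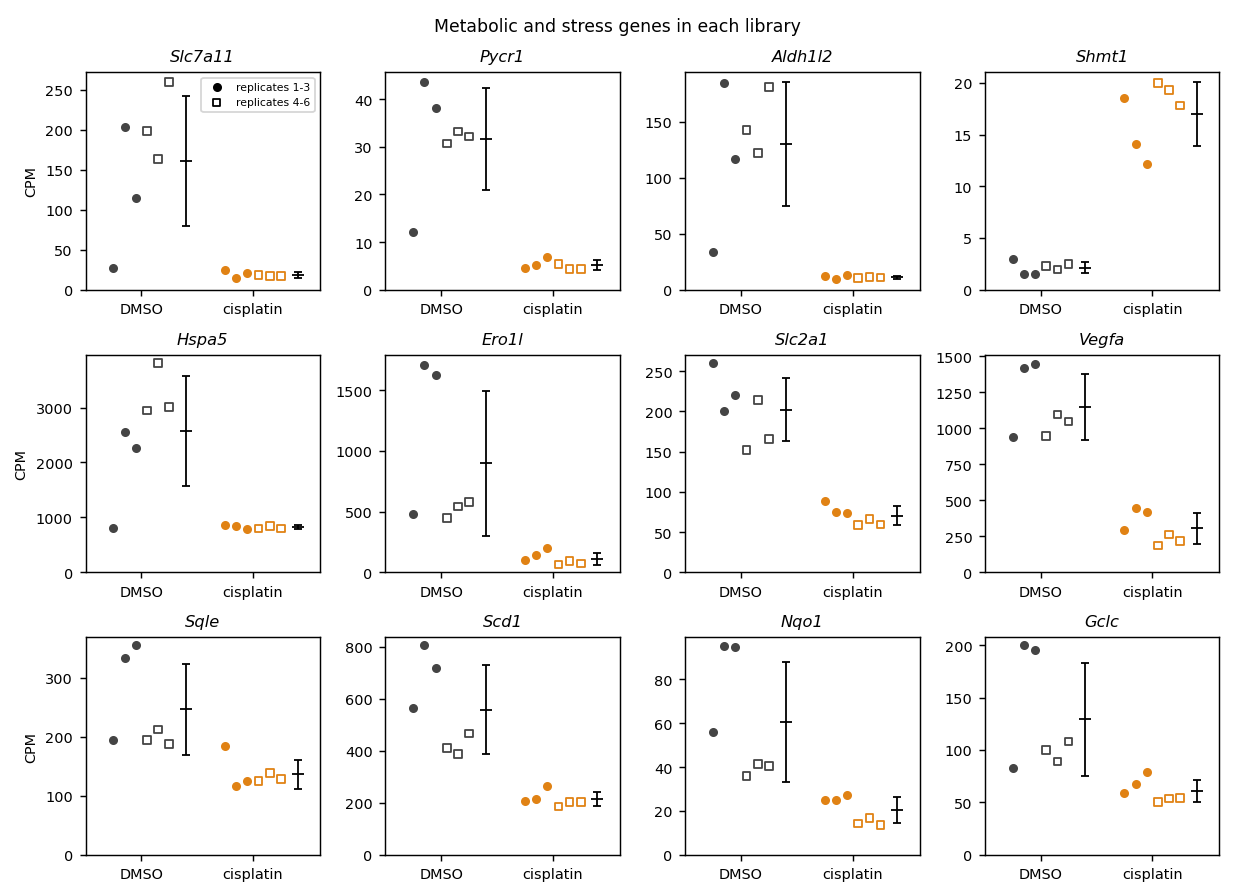
CPM (vertical axes, from 0) of 12 metabolic and stress genes in each DMSO and cisplatin library; filled circles are replicates 1 to 3, open squares replicates 4 to 6, and the bar is the mean ± SD of 6 libraries. Shmt1 is higher with cisplatin and the other 11 lower on average, and DMSO replicate 1 stands low for Slc7a11, Pycr1, Aldh1l2 and Hspa5.

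Genes of the endoplasmic reticulum were lower too. Of 24 chaperones, disulfide enzymes and stress sensors 20 fell and 0 rose, with a median log2 fold change of −0.66. Hspa5, the main chaperone of the compartment (BiP), was read from 814 to 3809.8 CPM (median 2752) with DMSO and from 794 to 864 CPM (median 818) with cisplatin (log2 fold change −1.64, SE 0.191, edgeR adjusted p = 7.72e-08). The cisplatin libraries lay within a narrow band, and DMSO replicate 1 fell inside it while the other 5 DMSO libraries were at 2271 CPM or more. Ero1l, the oxidase that forms disulfides in new proteins and is also raised by low oxygen, was read from 445 to 1709.8 CPM (median 561) with DMSO and from 64.9 to 196 CPM (median 94.4) with cisplatin (log2 fold change −3.01, SE 0.316, edgeR adjusted p = 1.41e-08). Xbp1, a transcription factor of the unfolded protein response, had a smaller decrease without overlap, from 209 to 304 CPM (median 246) with DMSO and from 146 to 183 CPM (median 166) with cisplatin.

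Glycolysis and hypoxia genes formed another block of decreases. The hypoxia-inducible factors raise glucose uptake, lactate export and blood vessel signals when oxygen is low. Of 21 glycolysis genes 18 fell and 1 rose (median −0.83), and of 15 targets of these factors 14 fell and 0 rose (median −1.09). Slc2a1, the basal glucose transporter, was read from 152 to 260.5 CPM (median 207) with DMSO and from 58.7 to 89.1 CPM (median 70) with cisplatin (log2 fold change −1.52, SE 0.125, edgeR adjusted p = 1.8e-10), without overlap. Pdk1, a kinase that holds pyruvate out of the mitochondria, was read from 207 to 538 CPM (median 365) with DMSO and from 50 to 184 CPM (median 107) with cisplatin and was 3.31-fold lower. Vegfa, the vascular growth factor, was read from 936 to 1446 CPM (median 1069) with DMSO and from 185 to 444 CPM (median 276) with cisplatin (log2 fold change −1.92, SE 0.164, edgeR adjusted p = 3.32e-10). For these 3 genes every DMSO library exceeded every cisplatin library. Aldoc, an aldolase, fell by a log2 fold change of −2.09, Slc16a3, a lactate exporter, by −1.99, and Ankrd37, a small ankyrin protein known as a hypoxia target, by −2.94. Pfkfb3, which makes the activator of phosphofructokinase, was the glycolysis gene that rose (0.38), a call lost when the 12 libraries were fitted alone (edgeR adjusted p = 0.0577). Ldha (lactate dehydrogenase) had a called decrease with overlapping groups (−0.91), and reads of Ldha and other glycolytic enzymes with close pseudogene copies may have been split by the authors' counting.

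Levels of these genes also differed between replicate numbers inside each group. Pdk1 was read at 473, 499 and 538 CPM in DMSO replicates 1 to 3 and at 207, 258 and 237 CPM in replicates 4 to 6, and with cisplatin at 122, 161 and 184 CPM and then at 50, 91.1 and 59.2 CPM. The labels name no batch, and the difference between cisplatin and DMSO in mean log2 CPM was −1.71 within replicates 1 to 3 and −1.85 within replicates 4 to 6. For the whole hypoxia list the medians of this difference were −1.21 and −0.92, and for glycolysis −0.92 and −0.81. The ATF4 list gave −0.55 and −1.04, and the reticulum list −0.41 and −0.82, the values of replicates 1 to 3 being nearer to 0. For cholesterol synthesis the values were −0.84 and −0.23, further from 0 in replicates 1 to 3. Of the 6689 called genes, 30 had opposite signs in the replicate sets.

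Genes of both sterol and fatty acid synthesis were among those that fell. Of 23 genes of cholesterol synthesis and uptake 18 fell and 1 rose (median −0.58), and of 20 genes of fatty acid synthesis 8 fell and 2 rose (median −0.18). The difference between the lists was not tested, and the called changes over 2-fold numbered 2 and 5. Sqle, squalene epoxidase, was read from 188 to 356 CPM (median 204) with DMSO and from 117 to 184 CPM (median 126) with cisplatin (log2 fold change −0.86, SE 0.146, edgeR adjusted p = 2.28e-05). Every cisplatin library lay below every DMSO library, narrowly so for cisplatin replicate 1, and DMSO replicates 2 and 3 were well above the other 4. Sc5d, a late desaturase, was the sterol gene that rose (0.49). In fatty acid synthesis Scd1, which makes monounsaturated fatty acids, was read from 388 to 806 CPM (median 516) with DMSO and from 186 to 266 CPM (median 206) with cisplatin (log2 fold change −1.39, SE 0.19, edgeR adjusted p = 1.13e-06), without overlap. Elovl6, an elongase, fell by −1.22 on the log2 scale, Fasn, fatty acid synthase, had −0.30 and passed the test only without replicate 1, without a count filter or with replicate numbers as a block (edgeR adjusted p = 0.00685, 0.0401 and 0.0471), and Acacb, the acetyl-CoA carboxylase that restrains mitochondrial fat import, rose (1.04). For fatty acid oxidation 3 of 14 genes rose and 7 fell, among them Cpt1a, the carnitine gate to the mitochondria (0.56), and Eci1, an isomerase of the pathway (−0.71).

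Redox genes were lower as well. NRF2 is the transcription factor that induces glutathione synthesis and detoxifying enzymes under oxidative stress. Of 29 of its targets and glutathione genes 20 fell and 0 rose (median −0.50), and Nfe2l2, which encodes the factor, had a log2 fold change of 0.07 that did not pass the test. Nqo1, a quinone reductase and a standard NRF2 target, was read from 35.8 to 95.1 CPM (median 48.5) with DMSO and from 13.7 to 27.4 CPM (median 21) with cisplatin (log2 fold change −1.57, SE 0.214, edgeR adjusted p = 1.02e-06). Gclc, the catalytic subunit of the first step of glutathione synthesis, was read from 83.1 to 200 CPM (median 104) with DMSO and from 50.4 to 79.4 CPM (median 56.8) with cisplatin (log2 fold change −1.09, SE 0.172, edgeR adjusted p = 8.27e-06). Both were free of overlap, and in both DMSO replicates 2 and 3 were the highest libraries. Srxn1 (sulfiredoxin), Hmox1 (haem oxygenase) and Txnrd1 (thioredoxin reductase) had called log2 fold changes of −1.20, −0.77 and −0.58. The antioxidant response element, searched as TGACNNNGC, was found in 10 of 25 list genes with a promoter window (40%), against 17% of tested genes and 12.4% of all windows. As the list was made of NRF2 targets, this share follows in part from the choice of genes. Of 23 genes of the tricarboxylic acid cycle 14 fell and 1 rose (median −0.21), and of 71 nuclear subunits of oxidative phosphorylation 26 fell and 1 rose (median −0.18), with 44 not called. The share of subunits called was 38.0%, below the 51.7% of all tested genes, and 36.6% were lower, against 25.7%. The lower subunits numbered 13 without replicate 3 and 17 without replicate 5, and the lower cycle genes 9 with scaling to total counts. Ndufa4l2, a hypoxia-induced relative of the subunit Ndufa4, was the exception in size, read from 2.6 to 19.8 CPM (median 8.85) with DMSO and from 0.0 to 2.32 CPM (median 0.404) with cisplatin (log2 fold change −3.52, SE 0.537, edgeR adjusted p = 5.29e-06), while Ndufa4 rose (0.67). The subunits encoded in mitochondrial DNA were not analysed here.

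Nucleotide synthesis genes moved in both directions. Of 24 genes 11 rose and 6 fell, with a median of 0.06. Genes that supply deoxynucleotides were among both. Rrm2, the small subunit of ribonucleotide reductase, was read from 14 to 34.3 CPM (median 23) with DMSO and from 68.2 to 133 CPM (median 77.8) with cisplatin (log2 fold change 1.90, SE 0.225, edgeR adjusted p = 1.08e-07). Rrm1, the large subunit, and Tyms (thymidylate synthase) had log2 fold changes of 1.31 and 1.45, and none of these 3 genes overlapped between groups. Rrm2b, an alternative small subunit, and Dut, which makes dUMP, fell (−0.43 and −0.33), the call of Dut being lost without replicate 3, 4 or 5, with scaling to total counts and in the fit of 12 libraries (edgeR adjusted p = 0.0568 to 0.2). Cad and Dhodh, early enzymes of pyrimidine synthesis, fell (−0.61 and −0.55). Of 24 lysosome and autophagy genes 7 rose and 2 fell (4 without replicate 1 or 2; median 0.06), with the membrane proteins Lamp1 and Lamp2 at 0.57 and 0.49, Ctsd, a lysosomal protease, at −0.06 without a call, and Sqstm1, an autophagy receptor that is also an NRF2 target, at −0.76.

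Extracellular matrix genes moved in both directions. Collagens form fibrils (types I and III), basement membrane sheets (type IV) and beaded microfilaments (type VI). Of 21 collagen chains tested among 44 listed 11 rose and 5 fell, with a median log2 fold change of 0.78. The count that fell rested on few libraries, being 2 without replicate 2, 3 without replicate 3, 4 or 6, and 3 with scaling to total counts. Col6a1, a chain of type VI, was read from 1.11 to 4.14 CPM (median 3.67) with DMSO and from 7.82 to 13.6 CPM (median 12.2) with cisplatin (log2 fold change 1.94, SE 0.242, edgeR adjusted p = 2.47e-07), and its partner Col6a2 from 0.0974 to 1.36 CPM (median 0.411) with DMSO and from 2.1 to 3.63 CPM (median 2.83) with cisplatin (2.44). Col4a1, of basement membranes, was read from 114 to 209 CPM (median 119.8) with DMSO and from 267 to 491 CPM (median 386) with cisplatin and was 2.65-fold higher. None of these 3 chains overlapped between groups. Col1a1, the main fibrillar chain, went the other way, read from 186 to 622 CPM (median 359) with DMSO and from 162 to 302 CPM (median 199) with cisplatin (log2 fold change −0.72, SE 0.234, edgeR adjusted p = 0.0123). Its groups overlapped, the call was lost without replicate 3 (edgeR adjusted p = 0.052), and the difference in mean log2 CPM was −1.07 within replicates 1 to 3 and −0.14 within replicates 4 to 6. Col3a1 had a log2 fold change of 0.22 that passed the test only without replicate 1 (edgeR adjusted p = 0.0437), and Col17a1, a transmembrane collagen of epithelial anchors, fell (−1.78). Of the other tested type IV chains Col4a2 rose (0.97), and Col4a5 and Col4a6 fell (−0.42 and −0.30).

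Among the 16 matrix glycoproteins 5 rose and 6 fell (median −0.18), with 3 lower without replicate 3. Fbn1, the backbone of elastic microfibrils, was read from 2.15 to 4.43 CPM (median 2.89) with DMSO and from 9.32 to 14.1 CPM (median 12) with cisplatin (log2 fold change 1.97, SE 0.179, edgeR adjusted p = 1.16e-09), and Nid1, which links laminin to type IV collagen, from 3.39 to 5.36 CPM (median 4.54) with DMSO and from 10.9 to 17.3 CPM (median 15) with cisplatin (1.74). Both were low in absolute counts yet separated the groups completely. Ltbp4, which holds latent TGF-beta in the matrix, fell without overlap, from 222 to 237 CPM (median 226) with DMSO and from 92.5 to 131 CPM (median 122) with cisplatin, and Fn1 (fibronectin) and Sparc had log2 fold changes of −0.40 and 0.08 without a call. Of 18 genes of proteoglycans and hyaluronan 9 rose and 1 fell (median 0.37). Dcn, decorin, a small proteoglycan that binds collagen fibrils, was read from 18.6 to 41 CPM (median 35.3) with DMSO and from 144 to 223 CPM (median 163) with cisplatin (log2 fold change 2.42, SE 0.18, edgeR adjusted p = 2.51e-11). Lum, lumican, had 0 counts in all DMSO libraries and at most 5 counts in a cisplatin library. Hyal1, a hyaluronidase, fell (−1.34) with overlapping groups. For Has2, the main hyaluronan synthase, the fit gave 0.00 without an SE, which is no measure of an unchanged level. Among 7 laminin chains 2 rose (1 without replicate 1, 4, 5 or 6) and 2 fell (0 without replicate 2 or 3), with Lama3 higher in few counts, from 0.0 to 0.193 CPM (median 0.0717) with DMSO and from 1.23 to 4.24 CPM (median 2.07) with cisplatin, and among 15 integrin chains 6 rose and 3 fell, with Itgb2, otherwise a leukocyte chain, at 1.19 and Itgb1, the common beta chain, at −0.22.

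Enzymes that cut or join the matrix changed in both directions. Of 29 proteases and inhibitors 14 rose and 7 fell (median 0.14), with 4 lower without replicate 3 or 5. Timp3, a matrix-bound inhibitor of metalloproteases, was read from 0.145 to 0.731 CPM (median 0.561) with DMSO and from 2.64 to 3.84 CPM (median 3.3) with cisplatin (log2 fold change 2.74, SE 0.253, edgeR adjusted p = 1.5e-09), and Plau, urokinase, the activator of plasminogen, from 2.06 to 3.59 CPM (median 3.02) with DMSO and from 12 to 13.7 CPM (median 12.6) with cisplatin (log2 fold change 2.11, SE 0.144, edgeR adjusted p = 4.3e-12). Both were higher in every cisplatin library than in any DMSO library. Timp2 rose (0.69), and Mmp17, a membrane-anchored metalloprotease, fell without overlap (−1.82). Serpinf1, a secreted serpin known to restrain vessel growth, was called lower (−1.57), but its differences were 0.18 within replicates 1 to 3 and −2.37 within replicates 4 to 6: the DMSO libraries 1 to 3 were at 1.25 to 2.53 CPM and the cisplatin libraries of the same numbers at 1.91 to 2.19 CPM. In collagen folding and crosslinking 5 of 15 genes rose and 7 fell. Those that fell included the prolyl hydroxylases P4ha1 (−1.28) and P4ha2 (−1.79) and the lysyl hydroxylase Plod2 (−0.78), which are also hypoxia targets, and Lox, lysyl oxidase (−1.10). Loxl1, an oxidase of elastic fibres, was read from 0.592 to 1.21 CPM (median 0.927) with DMSO and from 1.3 to 3.5 CPM (median 2.36) with cisplatin (log2 fold change 1.35, SE 0.339, edgeR adjusted p = 0.0017), and Bmp1, which trims procollagen, and Tgm2, a transglutaminase, also rose (0.75 and 0.67).

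**Figure D3:**
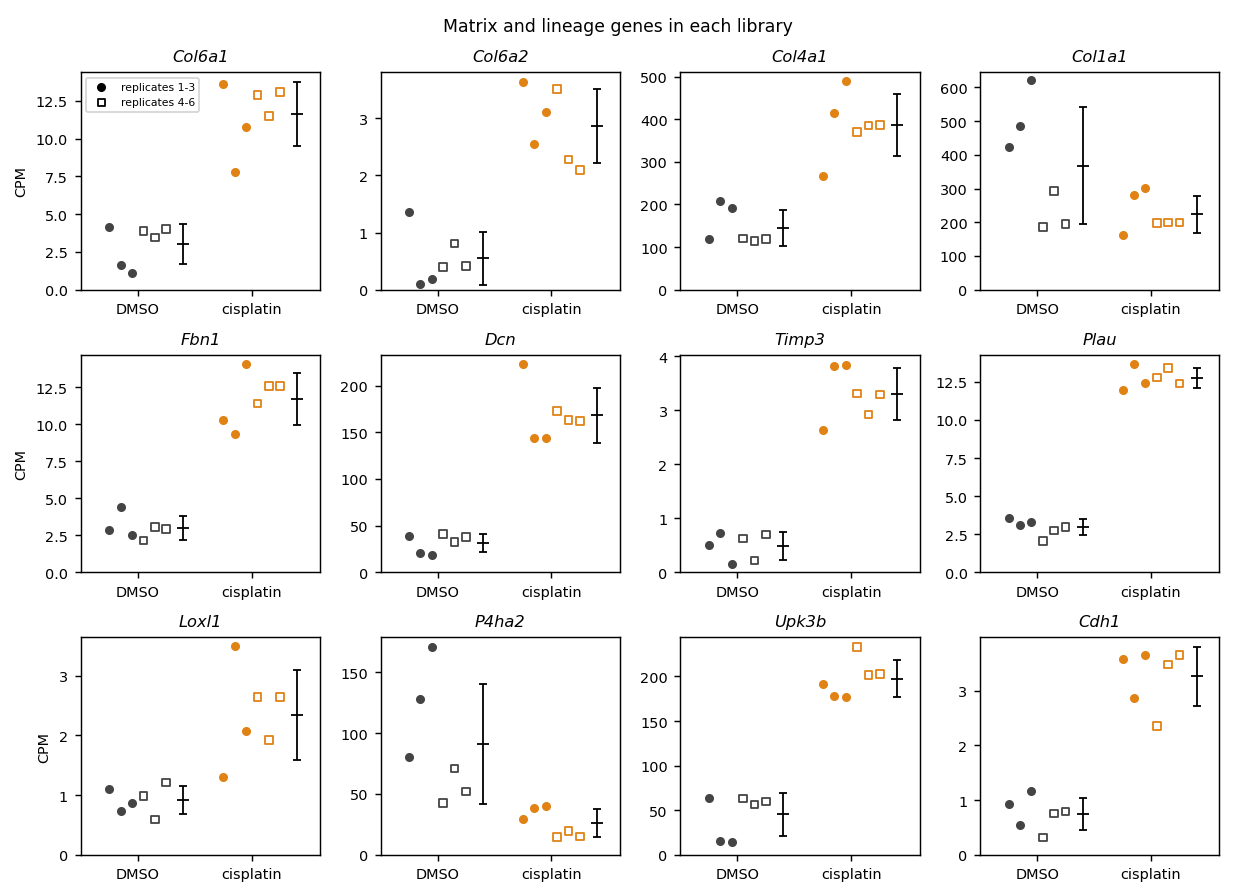
CPM (vertical axes, from 0) of 12 matrix and lineage genes in each DMSO and cisplatin library; filled circles are replicates 1 to 3, open squares replicates 4 to 6, and the bar is the mean ± SD of 6 libraries. Col6a1, Col6a2, Col4a1, Dcn, Timp3, Plau, Upk3b and Cdh1 separate the groups with cisplatin above, whereas Col1a1 overlaps and differs between the replicate sets with DMSO.

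Among transcription factors, cell cycle factors were mostly higher and immediate early factors mostly lower. E2F and FOXM1 proteins drive genes of S phase and of G2 and M phase, and the DREAM complex represses both in quiescent cells. Of 19 genes 13 rose and 2 fell (median 0.59). Foxm1 was read from 16.5 to 27.1 CPM (median 22.3) with DMSO and from 102 to 140.1 CPM (median 135) with cisplatin (log2 fold change 2.54, SE 0.151, edgeR adjusted p = 3.61e-13), Mybl2, the activating partner of the same complex, from 1.39 to 2.53 CPM (median 1.71) with DMSO and from 9.09 to 14.5 CPM (median 11.3) with cisplatin (2.65), and E2f8, an atypical member that closes S phase, rose by a log2 fold change of 2.63. E2f1 rose less (0.95). E2f4 and E2f5, which act in the repressive complex, fell (−0.29 and −0.57), and Rbl2, its pocket protein, had −0.12 and did not pass the test. Of 15 immediate early and AP-1 genes 10 fell and 1 rose (median −0.57). Fos was read from 245 to 508 CPM (median 319) with DMSO and from 134 to 208 CPM (median 174) with cisplatin (log2 fold change −1.03, SE 0.195, edgeR adjusted p = 8.74e-05), Jun from 418 to 696 CPM (median 456) with DMSO and from 232 to 345 CPM (median 265) with cisplatin (log2 fold change −0.86, SE 0.13, edgeR adjusted p = 4.44e-06), and Egr3, a zinc finger factor induced by growth factors, had −1.58. None of these 3 genes overlapped between groups. Mafk, a small Maf partner, was the one that rose (0.46).

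The Id genes fell as well. Id1, Id2 and Id3, inhibitors of basic helix-loop-helix factors that BMP receptors induce, had log2 fold changes of −1.40, −1.47 and −1.63. Id3 was read from 98.4 to 174 CPM (median 132) with DMSO and from 31.4 to 67.1 CPM (median 36.5) with cisplatin (log2 fold change −1.63, SE 0.242, edgeR adjusted p = 3.69e-06), without overlap. Over the 22 genes of TGF-beta and BMP signalling 6 rose and 8 fell, and those that rose included Inhbb, an activin subunit (1.41), and Fst, the activin antagonist follistatin (1.26). Of 13 genes of YAP and TEAD with their targets 7 rose and 1 fell (median 0.26). The targets Ankrd1 and Ccn2 rose (1.07 and 0.80), and the target Ccn1 was the gene that fell (−0.47). Myc had a log2 fold change of 0.01 and was not called, while Mxd3, a MAX partner expressed in S phase, rose (2.40). Of 34 nuclear receptors 5 rose and 13 fell (median −0.15), and those that fell included Nr4a1, an immediate early receptor (−1.04), and the retinoic acid receptor Rarg (−0.74). Of the other two members of the first family, Nr4a3 was called higher (2.59, and 3.26 without replicate 3) with at most 3 counts in a DMSO library and 11 in a cisplatin library, and Nr4a2 had 0.03 without a call. Pparg, Esr1 and Nr3c1, the glucocorticoid receptor, did not pass the test (−0.38, −0.09 and 0.13). Of 17 Hox genes 1 rose and 4 fell, of 18 KLF and SP factors 3 (0 or 1 without replicate 4, 5 or 6) and 5 (8 without replicate 1), and of 15 clock genes 0 and 5, where Dbp, an output factor of the clock, fell (−1.02) and Arntl, Per1 and Per2 had values between −0.12 and 0.04 without a call.

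Of 10 tested genes of mesothelial and ovarian surface identity 7 rose and 1 fell, with a median log2 fold change of 0.85. Upk3b, a surface protein typical of mesothelium, was read from 13.9 to 63.5 CPM (median 58.1) with DMSO and from 177 to 233 CPM (median 197) with cisplatin (log2 fold change 2.12, SE 0.309, edgeR adjusted p = 2.69e-06), and Lrrn4, another mesothelial surface protein, had 2.21. Wt1, the lineage factor, rose by a smaller amount with overlapping groups (0.21), a call lost without replicate 3 or 5 or without a count filter (edgeR adjusted p = 0.0587, 0.0778 and 0.0579), and Msln, mesothelin, was not called (0.14). Of 14 epithelial and mesenchymal factors and markers 5 rose and 3 fell (1 without replicate 3; median 0.04). Cdh1 (E-cadherin) was read from 0.313 to 1.16 CPM (median 0.772) with DMSO and from 2.36 to 3.66 CPM (median 3.53) with cisplatin (log2 fold change 2.13, SE 0.277, edgeR adjusted p = 4.84e-07), and Krt7, a simple epithelial keratin, from 0.434 to 2.42 CPM (median 1.28) with DMSO and from 4.34 to 5.16 CPM (median 4.65) with cisplatin (1.89), both low in counts. Krt19, a keratin of far higher counts, had −0.35 and was not called. Cdh2 (N-cadherin) rose too (0.82). Of the repressors of E-cadherin, Snai1 and Snai2 fell (−0.55 and −0.63), the call of Snai1 being lost without replicate 2, 3 or 6, with scaling to total counts and in the fit of 12 libraries (edgeR adjusted p = 0.053 to 0.11), whereas Zeb1, Zeb2 and the filament gene Vim did not pass the test (−0.11, −0.06 and −0.31).

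In homologous recombination 20 of 24 genes rose and 2 fell (median 0.88), and in the Fanconi anaemia pathway 12 of 19 rose and 5 fell (median 0.68). In nucleotide excision repair 5 of 26 rose and 8 fell (median −0.14), and in DNA end joining 2 of 15 rose and 5 fell (median −0.08), against 26.0% higher and 25.7% lower over all tested genes. Differences between these lists were not tested. The excision repair genes that rose numbered 3 without replicate 2, 4, 5 or 6. Brca1, which directs breaks into recombination, was read from 5.6 to 8.29 CPM (median 7.24) with DMSO and from 44.8 to 66.9 CPM (median 57.8) with cisplatin (log2 fold change 3.03, SE 0.116, edgeR adjusted p = 4.37e-17). Rad54l, a motor protein of strand exchange, was read from 1.61 to 2.14 CPM (median 1.77) with DMSO and from 14.1 to 19.6 CPM (median 18.8) with cisplatin (log2 fold change 3.26, SE 0.161, edgeR adjusted p = 7.25e-15). The groups did not overlap for either gene. Brca2, also a recombination gene, rose less and overlapped (0.91), while Rad52 and Rad51d fell (−0.36 and −0.38).

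In the Fanconi pathway the ID complex, which is ubiquitinated at a stalled fork, rose in both subunits: Fancd2 was read from 2.28 to 3.96 CPM (median 2.7) with DMSO and from 17.2 to 28.3 CPM (median 24.3) with cisplatin (log2 fold change 3.01, SE 0.19, edgeR adjusted p = 1.07e-12) and Fanci from 2.14 to 4.38 CPM (median 3.02) with DMSO and from 16.6 to 27 CPM (median 20.5) with cisplatin (2.77). Fanca, of the core ligase complex, rose (2.15), and Fancc, of the same complex, fell (−0.71). Eme1, a subunit of the crosslink-cutting nuclease MUS81-EME1, was read from 0.761 to 1.79 CPM (median 1.38) with DMSO and from 14.8 to 23 CPM (median 18.7) with cisplatin (log2 fold change 3.77, SE 0.195, edgeR adjusted p = 1.86e-14). In nucleotide excision repair the damage sensors Xpc and Ddb2 had log2 fold changes of −0.24 and 0.30, both called with overlapping groups. The call of Xpc was lost without replicate 2 or 3 and with scaling to total counts (edgeR adjusted p = 0.0715 to 0.0823). That of Ddb2 was lost without replicate 2, 4, 5 or 6, without a count filter and in the fit of 12 libraries (edgeR adjusted p = 0.0504 to 0.175). Xpa and Ercc1 had −0.20 and 0.09 without a call. Rpa2, a subunit of the single-strand binding protein that also serves replication, was the largest increase of that list (1.32).

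**Figure D4:**
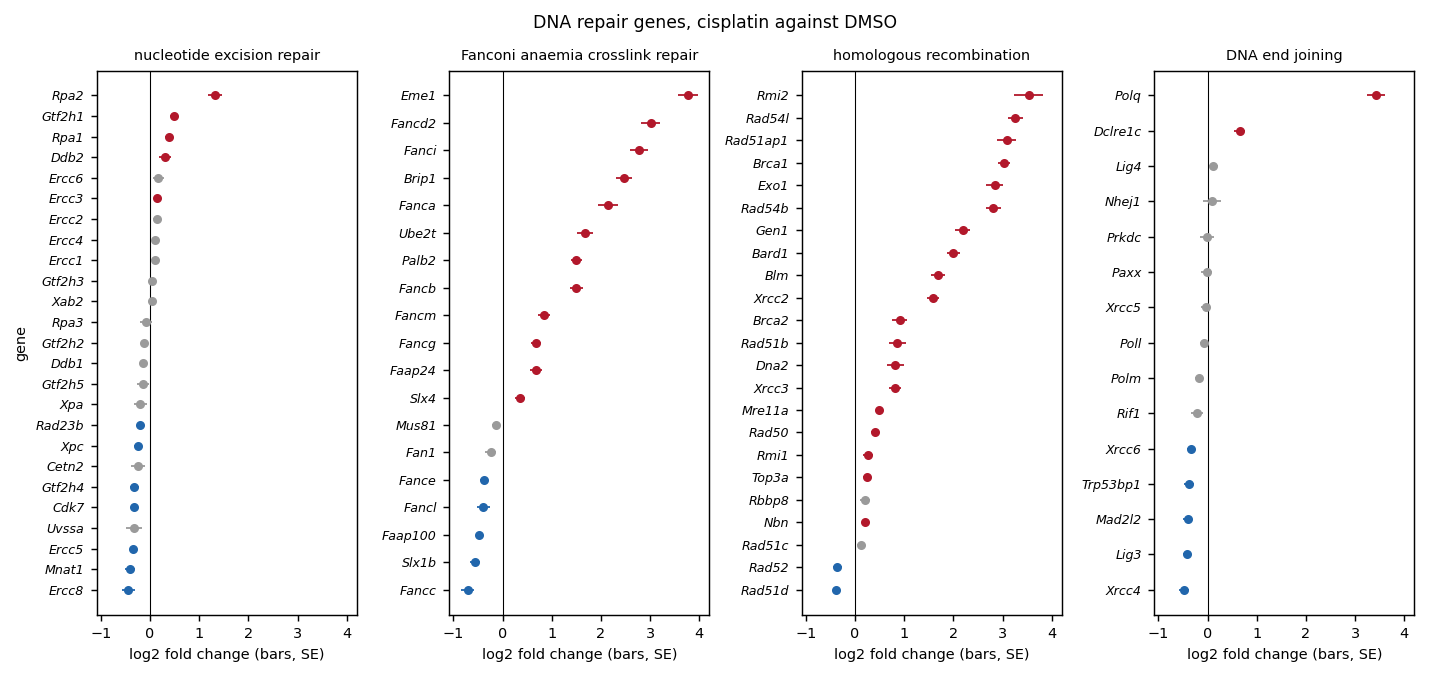
Log2 fold change of cisplatin over DMSO (horizontal axes; bars, SE) for tested genes of 4 repair pathways, red where higher and blue where lower at an adjusted p under 0.05 and grey where the test was not passed. Most recombination genes lie right of 0, while end joining and excision repair genes lie close to 0 except Polq and Rpa2.

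Polq, the polymerase of microhomology-mediated joining, stood apart on the end joining list, read from 1.16 to 1.91 CPM (median 1.33) with DMSO and from 11.7 to 17.5 CPM (median 15.6) with cisplatin (log2 fold change 3.42, SE 0.186, edgeR adjusted p = 5.29e-14). The Ku subunits Xrcc6 and Xrcc5 had −0.34 (called) and −0.04 (not called), Prkdc, the DNA-dependent kinase, −0.02 (not called), and Trp53bp1, which protects ends from resection, fell (−0.38). In base excision repair 6 of 16 genes rose and 5 fell, the glycosylases Neil3 and Neil2 with 2.92 and 2.03 against Neil1 with −0.52 and Parp1 with −0.48. Without 1 of replicates 1, 3, 4 and 5 the count that fell was 2 or 3. In mismatch repair 3 of 7 rose and 1 fell, with Msh6, a sensor of mispaired bases, at 0.22, and 1 rose without replicate 4, 5 or 6. Of 13 genes of translesion synthesis 3 rose and 2 fell (1 without replicate 2, 4 or 6): Rad18, the ligase that marks PCNA, rose (0.90), Polh, which copies past platinum adducts, rose slightly with overlap (0.26), and Rev3l was not called (−0.16). The call of Polh was lost without replicate 1, 4, 5 or 6, without a count filter and in the fit of 12 libraries (edgeR adjusted p = 0.0569 to 0.124). Of 21 checkpoint genes 17 rose and 1 fell (median 0.61). Chek1, the kinase that acts below ATR, was read from 2.97 to 4.2 CPM (median 3.65) with DMSO and from 15.6 to 23.7 CPM (median 18.3) with cisplatin (log2 fold change 2.40, SE 0.143, edgeR adjusted p = 3.6e-13), whereas Atr had 0.05 and was not called. Of 24 genes known as p53 targets 5 rose (3 without replicate 2, 4, 5 or 6) and 7 fell (median −0.03). Fas, a death receptor, was read from 0.0 to 0.377 CPM (median 0.213) with DMSO and from 0.947 to 1.97 CPM (median 1.36) with cisplatin (log2 fold change 2.62, SE 0.475, edgeR adjusted p = 5.13e-05), without overlap and in few counts. Mdm2 and Bax were not called (−0.11 and −0.10, Mdm2 passing only without replicate 1 with an edgeR adjusted p = 0.00412), and Cdkn1a, the cyclin-dependent kinase inhibitor p21, fell, read from 38.3 to 84 CPM (median 55.1) with DMSO and from 15.5 to 29.2 CPM (median 18.9) with cisplatin (log2 fold change −1.50, SE 0.178, edgeR adjusted p = 1.09e-07).

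Replication and mitosis genes held the highest medians of the 47 lists. Of 43 replication genes 34 rose and 3 fell (median 1.22), of 34 mitosis genes 33 rose and 0 fell (median 2.56), and of 11 genes of the G1 machinery 6 rose and 1 fell (median 0.51). The E2F element, searched as TTTNNCGC on both strands, was found in 17 of the 36 replication genes with a promoter window (47.2%), against 9.81% of tested genes with a window and 5.17% of all windows. Since E2F proteins drive genes of S phase, this share follows in part from the choice of list, and a match describes letters only. Of the genes with the element Orc3 fell (−0.55), Pold3, Pole4 and Rnaseh2a were not called, and the rest rose. The windows of the 3 list genes with the element and the largest changes are shown with the element in capitals.
Orc1 promoter, chr4:108579204-108579503, plus strand: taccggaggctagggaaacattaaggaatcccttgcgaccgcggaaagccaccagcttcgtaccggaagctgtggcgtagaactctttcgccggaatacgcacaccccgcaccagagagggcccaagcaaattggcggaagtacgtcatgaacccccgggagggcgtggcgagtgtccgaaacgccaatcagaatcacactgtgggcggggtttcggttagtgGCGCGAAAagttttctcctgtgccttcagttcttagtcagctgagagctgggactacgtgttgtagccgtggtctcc
Mcm5 promoter, chr8:75109259-75109558, plus strand: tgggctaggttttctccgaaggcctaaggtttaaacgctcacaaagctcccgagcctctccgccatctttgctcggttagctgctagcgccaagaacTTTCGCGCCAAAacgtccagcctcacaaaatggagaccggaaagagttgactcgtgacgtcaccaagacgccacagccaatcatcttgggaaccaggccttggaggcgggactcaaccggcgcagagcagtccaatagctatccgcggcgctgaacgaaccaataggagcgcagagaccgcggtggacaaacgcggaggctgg
Cdc6 promoter, chr11:98907901-98908200, plus strand: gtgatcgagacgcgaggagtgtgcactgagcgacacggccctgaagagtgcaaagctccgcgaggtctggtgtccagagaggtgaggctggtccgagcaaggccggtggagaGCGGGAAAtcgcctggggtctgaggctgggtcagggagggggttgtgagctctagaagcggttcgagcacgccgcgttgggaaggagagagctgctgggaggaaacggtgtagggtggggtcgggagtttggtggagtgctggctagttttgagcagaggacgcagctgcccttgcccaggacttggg
Orc1, a subunit of the complex that marks replication origins, was read from 0.627 to 1.42 CPM (median 0.91) with DMSO and from 7.74 to 11.3 CPM (median 8.32) with cisplatin (log2 fold change 3.21, SE 0.202, edgeR adjusted p = 9.79e-13). Mcm5, of the replicative helicase, was read from 16 to 29.2 CPM (median 20.5) with DMSO and from 110.2 to 185 CPM (median 135) with cisplatin (log2 fold change 2.73, SE 0.169, edgeR adjusted p = 7.22e-13), and Cdc6, which loads the helicase, from 3.12 to 7.86 CPM (median 4.1) with DMSO and from 24.6 to 38.4 CPM (median 30) with cisplatin (2.68). In all 3 genes the lowest cisplatin library was above the highest DMSO library. Pcna, the sliding clamp, rose less (1.21), and Pold4, a small subunit of polymerase delta, fell (−1.23). In mitosis Ccnb1, the mitotic cyclin, was read from 4.28 to 11.4 CPM (median 6.61) with DMSO and from 46.8 to 65.8 CPM (median 54.6) with cisplatin (log2 fold change 2.94, SE 0.241, edgeR adjusted p = 1.66e-10), and Cdk1, its kinase, from 20.3 to 43.1 CPM (median 30.5) with DMSO and from 101 to 155 CPM (median 107) with cisplatin (1.93). Plk1, Aurka and Ndc80, a kinetochore component, had log2 fold changes of 2.54, 2.76 and 3.39. Ccnd1, cyclin D1, was read from 58.2 to 76.8 CPM (median 70.5) with DMSO and from 223 to 243 CPM (median 236) with cisplatin (log2 fold change 1.75, SE 0.137, edgeR adjusted p = 6.69e-11), with narrow and separate groups, while Ccnd2 fell (−0.59) and Cdkn1b, p27, was not called (−0.08).

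Of 17 genes of platinum transport and metallothioneins 5 rose and 4 fell (median −0.03), a share called of 52.9% against 51.7% of all tested genes. Slc31a1, a copper importer that also takes up cisplatin, was read from 90.1 to 119 CPM (median 103) with DMSO and from 67.1 to 79.8 CPM (median 70.1) with cisplatin (log2 fold change −0.53, SE 0.0668, edgeR adjusted p = 3.27e-07), and Slc31a2, its lysosomal relative, rose (1.06). The copper exporters Atp7a and Atp7b were not called (0.28 and −0.41), although Atp7a passed the test without replicate 2 or 6, with scaling to total counts and with replicate numbers as a block (edgeR adjusted p = 0.0169 to 0.0381). Abcc4, an exporter of nucleotides and organic anions, was read from 66.2 to 227 CPM (median 191) with DMSO and from 42.8 to 53.1 CPM (median 44.8) with cisplatin (log2 fold change −1.89, SE 0.171, edgeR adjusted p = 1.04e-09), without overlap. Mt2 rose (1.35) and Mt1 was not called (−0.28), and reads of these near-identical metallothioneins may have been split. Of 18 apoptosis regulators 6 rose and 4 fell: the BH3-only genes Bmf and Bcl2l11 fell (−1.30 and −0.45), Bid rose (0.91), and Bcl2l1 was not called (−0.05). Of 24 growth factors and receptors 9 rose (5 without replicate 4) and 6 fell, with Areg, an EGF receptor ligand, read from 4.64 to 10.4 CPM (median 8.65) with DMSO and from 1.28 to 2.96 CPM (median 1.7) with cisplatin (log2 fold change −2.06, SE 0.224, edgeR adjusted p = 2.64e-08), and Hbegf, another ligand of that receptor, higher (0.51).

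Genes of interferon response, antigen presentation, nucleic acid sensing and inflammatory secretion, with a few senescence markers (192 tested), were set aside, although they held larger increases than any named below. Of those that met the other criteria for the largest changes, 14 rose more than every gene kept, by log2 fold changes of 4.35 to 9.44, and 0 fell more than the 10 decreases kept. With these genes set aside, the 10 largest changes in each direction outside the lists were taken among genes with an average log2 CPM of at least 5. On the higher side Iqgap3, a scaffold expressed in cycling cells, was read from 4.52 to 8.52 CPM (median 5.5) with DMSO and from 62.1 to 99.6 CPM (median 94.2) with cisplatin (log2 fold change 3.83, SE 0.174, edgeR adjusted p = 1.42e-15). Cep55 (abscission), Nusap1, Dlgap5 and Hmmr (spindle), Sgo2a and Kntc1 (kinetochore and cohesion), Kif20b and Cit (cytokinesis) had log2 fold changes from 2.88 to 3.21, and D17H6S56E-5 the largest of those kept, 4.07. On the lower side Ptgs2, the inducible cyclooxygenase of prostaglandin synthesis, was read from 305 to 1161 CPM (median 841) with DMSO and from 112 to 236 CPM (median 128) with cisplatin (log2 fold change −2.46, SE 0.227, edgeR adjusted p = 1.51e-09). Gbe1, the glycogen branching enzyme, was read from 50.2 to 196 CPM (median 92.3) with DMSO and from 15.4 to 36 CPM (median 22.2) with cisplatin (−2.19). Bsg, basigin, the chaperone of lactate transporters, was read from 1339 to 8131 CPM (median 3719) with DMSO and from 535 to 1658 CPM (median 797) with cisplatin (log2 fold change −2.04, SE 0.36, edgeR adjusted p = 3.6e-05), and its groups overlapped because DMSO replicates 4 to 6 were at 1339 to 2019 CPM against 5419 to 8131 CPM in replicates 1 to 3. Gdpd2, a glycerophosphodiesterase, Nrn1, neuritin, and Ace, the angiotensin-converting enzyme, fell by −1.97, −1.92 and −1.88 on the log2 scale, and Steap1, Kif21b, Phospho1 and Aox3 by −1.70, −1.68, −1.65 and −1.60.

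The same drug was also compared in the other 12 libraries, from cells that all received AU15330. These libraries shared the statistical fit with the comparison above. With AU15330 present, 2873 genes were higher with cisplatin (22.2%) and 2521 lower (19.5%), and the median over all tested genes was 0.01. The interaction, which tests whether the effect of cisplatin differed with AU15330, was called for 4361 genes (33.7%). It was called for 20 of the 20 genes named as largest changes, but those genes were chosen on the same DMSO and cisplatin libraries, so their count supports nothing. The 10 that rose had log2 fold changes of 1.67 to 2.27 with AU15330 present. Of the 10 that fell, 0 were called lower there, with values from −0.55 for Gbe1 and Ace to 0.94 for Phospho1 and 1.22 for Ptgs2, which were called higher.

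**Figure D5:**
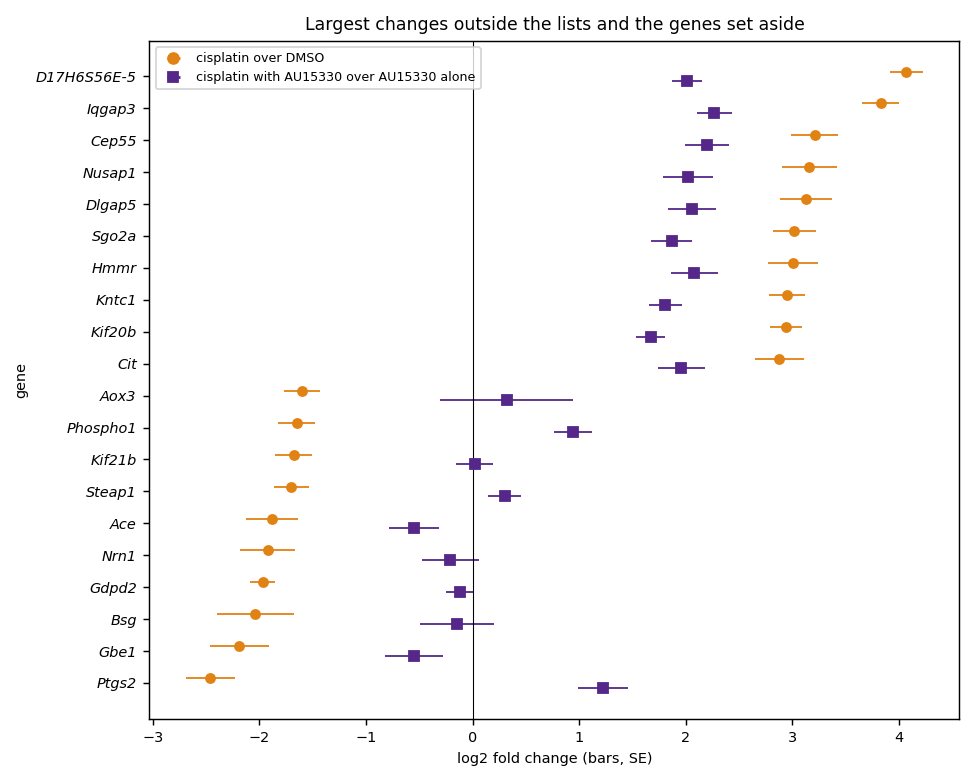
Log2 fold change (horizontal axis; bars, SE) of the 20 largest changes outside the lists and the interferon and inflammatory genes set aside (rows) for cisplatin over DMSO (circles) and for cisplatin with AU15330 over AU15330 alone (squares), 6 libraries a group. The genes that rose also lie right of 0 with AU15330, and those that fell lie between −0.55 and 1.22.

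With AU15330 in both arms, mitosis had 32 of 34 genes higher and 0 lower (median 1.80), replication 38 and 1 of 43 (median 1.08) and homologous recombination 18 and 2 of 24 (median 1.10). For the ATF4 targets 9 of 31 were higher and 4 lower (median 0.19), for serine and one-carbon metabolism 9 and 0 of 15 (median 0.43), and for glycolysis 3 and 4 of 21 (median −0.09). The interaction was called for 26 of the 31 ATF4 targets, 11 of the 15 serine and one-carbon genes, 17 of the 20 synthetases, 16 of the 21 glycolysis genes and 19 of the 29 NRF2 and glutathione genes. It was called for 4 of the 19 Fanconi genes, 8 of the 26 excision repair genes and 18 of the 34 mitosis genes, against 33.7% of all tested genes. Reticulum chaperones and cholesterol synthesis had medians of −0.02 and 0.27 with AU15330 present. Collagen chains had 4 genes higher and 3 lower (median 0.29), and mesothelial genes 4 and 2 (median 0.38).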

How the data were processed

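ID8 Trp53-/- cells of 24 libraries were treated for 6 days. Per the labels, RNA was enriched for poly(A) and made into directional libraries. The submitters' processing notes name STAR 2.7.1a, DESeq2 1.36.0 and mm10, and the counting tool, the annotation and the use of strand are not given in the sources used here, so overlapping genes cannot be told apart with certainty. The deposited values are raw read counts of 25229 gene symbols in 48 columns, 2 lanes for each library, all matched to samples by label. Lanes were summed (chi-square per degree of freedom between lanes 1.36 to 1.46, against 5.67 or more between replicates). The labels give cisplatin at 750 nM, and the study's methods give another concentration for these cells. The 12 cisplatin and DMSO libraries held 17592588 to 25260009 counts, and a floor of 3 counts covers counting error only.

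Counts of all 24 libraries were fitted in edgeR 4.0.16 (R 4.3.3) with TMM scaling, filterByExpr (12941 genes kept), means of the 4 groups and its quasi-likelihood F test (20 residual degrees of freedom). P-values were adjusted over all tested genes by Benjamini and Hochberg's method, with a threshold of 0.05. Log CPM used a prior count of 2. The alternatives were DESeq2 size factors, library totals, DESeq2 1.42.0, no count filter, the 12 libraries alone, a replicate block, each replicate number left out and a minimum fold of 1.5. The comparison with AU15330 present, the interaction over lists and the differences within replicates 1 to 3 and 4 to 6 were added after the data were seen.

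The 51 gene lists (1146 genes, 966 tested, some in several lists) and the members named were chosen with earlier results of these data known. Named were marked genes of each list, the 2 largest called increases and decreases of a list, and, outside the lists and 192 tested interferon, antigen presentation, sensing and inflammatory genes set aside by name, the 10 largest of each direction with an average log2 CPM of at least 5 and 6 of 6 same-numbered differences in the same direction, a rule of choice only, since the numbers were not found to pair the libraries. Part of these genes is described, some are not reported here, and Trp53, Pecam1, Cd68, Ptprc, Krt19, Nr4a2, Rrm2b and Dut were named after their values were seen. Bnip3, Col1a2 and Twist1 did not pass the count filter. Promoter windows and their coordinates are those of RefSeq on GRCm38.p6, matched by symbol for 10341 of the tested genes. The sterol regulatory element TCACNCCAC was found in 1 of 16 cholesterol genes with a window (6.25%), against 1.36% of tested genes.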

Additional observations from a re-analysis of the deposited data

Results flagged for a closer look

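For each named gene the 6 values of a group were searched for a library far from the other 5, by Dixon's ratio of the gap to the nearest value over the group's range, at its 95% critical value. Of 426 groups searched 32 were flagged, where chance alone flags about 1 in 20 groups, or 21.3. Cisplatin replicate 1 gave 17 of the 32. It was the highest library, with the gap as a share of the range in parentheses, for Psat1 (0.79), Atf4 (0.673), Ddit3 (0.828), Gars (0.655), Sqle (0.688), Tyms (0.681), Rrm1 (0.662), Rrm2 (0.804), Dcn (0.627), Mxd3 (0.819), Rpa2 (0.753), Xrcc5 (0.642), Pcna (0.725), Cdk1 (0.708) and Aurka (0.662), and the lowest for Rarg (0.773) and Bmf (0.693). Rrm2 was at 133 CPM there against 68.2 to 80.9 CPM in the other cisplatin libraries, and Ddit3 at 58.7 against 36.2 to 40 CPM. DMSO replicate 1 was the lowest library for Mthfd2 (0.685), Txnrd1 (0.707), Cad (0.665) and Mdm2 (0.667) and the highest for Rrm1 (0.687), with Mthfd2 at 31 CPM against 76.8 to 97.9 CPM in the other DMSO libraries.

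The other flagged values were Scd1 in cisplatin replicate 3 (0.652, highest), Eci1 in cisplatin replicate 2 (0.681, highest), Fn1 in cisplatin replicate 3 (0.698, highest), E2f5 in DMSO replicate 5 (0.704, lowest), Nr4a1 in DMSO replicate 3 (0.826, highest), Nr4a3 in the same library (0.664, highest, at most 3 counts), Arntl in cisplatin replicate 2 (0.65, lowest), Id1 in cisplatin replicate 2 (0.659, highest), Rrm2b in cisplatin replicate 3 (0.632, highest) and Trp53 in DMSO replicate 2 (0.759, lowest). The cause of these distances was not tested.

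The effect of cisplatin differed with AU15330, by the interaction term of edgeR's quasi-likelihood test, for each of the 20 genes named as largest changes. The effect with AU15330 minus that without it, on the log2 scale, was below 0 for the 10 genes that rose: D17H6S56E-5 (−2.06), Iqgap3 (−1.55), Cep55 (−1.01), Nusap1 (−1.15), Dlgap5 (−1.07), Sgo2a (−1.15), Hmmr (−0.93), Kntc1 (−1.14), Kif20b (−1.27) and Cit (−0.92). It was above 0 for the 10 that fell: Ptgs2 (3.67), Gbe1 (1.64), Bsg (1.9), Gdpd2 (1.85), Nrn1 (1.71), Ace (1.33), Steap1 (2.0), Kif21b (1.69), Phospho1 (2.6) and Aox3 (1.93). The adjusted p ran from 2.97e-09 to 0.0262 over the 20 genes, and the genes were chosen on libraries that enter the interaction.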

How the results depend on the processing

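The count of genes called between cisplatin and DMSO was 5638 to 7359 under the other scalings, DESeq2, no count filter and the fit of 12 libraries, and 5820 to 6821 when a replicate number was left out. Requiring a fold over 1.5 left 1789 genes, 1422 higher and 367 lower, since small differences no longer count. With replicate numbers as a block 7354 genes were called, 3702 higher and 3652 lower. Same-numbered cisplatin and DMSO libraries deviated together with r over 0.1 in 4 of 6 pairs and 1 of 6 DMSO libraries was most like its own number, so the numbers were not taken to pair the libraries. The count with AU15330 present was 4498 to 5615 without a replicate number and 6185 with the block, and the interaction was called for 3261 to 4625 and 5303 genes. The fit of 12 libraries and the minimum fold were not run for either. Of 2556 values of named genes 2516 kept their side of the threshold, 30 lost the call and 10 gained it. A turn of direction was searched for in called genes only and was found for 0 values. Of 426 differences within replicates 1 to 3 or 4 to 6, 69 lay at least the pooled within-group SD away from the fitted log2 fold change. Among called genes 1 value was reversed: Serpinf1 had the other sign within replicates 1 to 3 (0.18), and the cause was not tested. Of 1152 counts over lists 94 moved by more than 1.5 times. Genes at a few counts, such as Lama3 and Ndufa4l2 with cisplatin, are limited by depth, and small fold changes of low genes may have been missed at this depth.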
